A study of Mus musculus with 24 samples.

Results

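The comparison described here is how the response of blood progenitors to MLL::ENL differed between adult and fetal mice: the effect of MLL::ENL at 8wk minus its effect at E16. It used 16 of the study's 24 RNA-seq libraries, 4 from each of 4 groups, and it was fitted for all 18931 genes that passed a filter on low counts, of 55487 in the count table. All libraries came from mouse LSK cells, which lack lineage markers and carry Sca1 and KIT. The ME groups carried Tet-On-ME, an inducible (Tet-On) MLL::ENL transgene that was switched on in culture, and the control groups came from control mice at the same ages. Both were sorted and then cultured for 48 h, so every library measures cultured cells. The E16 cells came from fetal liver at embryonic day 16 and the 8wk cells from bone marrow of mice 8 weeks old, so age and tissue cannot be told apart. Another age, P14 (bone marrow at postnatal day 14), is no term of the comparison and is given beside it, although its 8 libraries were in the fit and so bear on the filter and the spread estimate behind every p-value. Nothing in the labels says that the 4 libraries of a group came from separate animals. If they did not, p-values measure the spread among these libraries alone, which could be technical.

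MLL (gene Kmt2a) is a chromatin regulator that keeps developmental genes such as the Hoxa cluster switched on. ENL (gene Mllt1) is a reader of acetylated histones that belongs to complexes that help RNA polymerase elongate. Joined in MLL::ENL, they drive leukaemia by holding stem cell genes such as Hoxa9 and Meis1 at a high level, and fetal and adult progenitors are known to answer such fusions differently.

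The 16 libraries held 33.9 to 69.3 M counts (median 46.2 M). The LSK genes were present in every library: Kit at 376 to 1760 CPM (counts per M counts of the library), Ly6a, which encodes Sca1, at 104 to 827, Cd34 at 764 to 1250, Flt3 at 149 to 460 and Ptprc at 157 to 235. Hepatocyte markers summed to 6.58 to 28.2 CPM. There were 3 libraries that stood apart from their groups in myeloid genes, and they were singled out after the data were seen: E16 ME replicate 4, 8wk ME replicate 4 and 8wk control replicate 1. The 17 mature neutrophil markers summed to 109 CPM in E16 ME replicate 4 against 910 to 1100 in the other E16 ME libraries, and to 183 CPM in 8wk ME replicate 4 against 1110 to 1730. They summed to 1030 CPM in 8wk control replicate 1 against 98.1 to 129 in the other 8wk controls. E16 control replicate 1 was also high in them, at 6130 CPM against 1170 to 1920, and was not among the 3. Values without these 3 libraries are given beside the results.

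MLL::ENL had different effects at the 2 ages on 161 genes, which is 0.85% of the genes tested (edgeR quasi-likelihood test, adjusted p under 0.05). The effect was higher at 8wk for 87 genes (0.46%) and lower at 8wk for 74 (0.391%). An unadjusted p under 0.05 was reached by 2724 genes. By comparison, ME and control differed at 4125 genes at E16 (21.8%), 4168 at P14 (22.0%) and 5392 at 8wk (28.5%). The standard error of the difference had a median of 0.35 on the log2 scale, against 0.25 for the effect at either age. Without the 3 libraries that stood apart, 749 genes were higher and 613 lower, together 7.07% of 19267 genes, and 159 of the 161 genes were among them. The number of called genes therefore depended heavily on single libraries. The sign of the difference was the same for all 161 genes in that fit, but they were picked by this difference in mostly the same libraries. A kept sign is thus favoured in advance.

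Genes with a higher effect at 8wk mostly went down in the fetus, up in the adult, or both. Of the 87, 45 rose at 8wk without a call at E16, 27 fell at E16 and rose at 8wk, 13 fell at E16 without a call at 8wk, and 2 rose at both ages. Their median effect was -0.49 at E16, -0.01 at P14 and 1.15 at 8wk on the log2 scale. The 74 genes with a lower effect at 8wk were the reverse. Of these, 26 rose at E16 without a call at 8wk, 24 fell at 8wk without a call at E16, 16 rose at E16 and fell at 8wk, 7 rose at both ages and 1 fell at both. Their medians were 0.78, 0.29 and -0.58. Over all genes tested the medians were 0.02, 0.03 and -0.02.

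The effects at E16 and 8wk had opposite signs for 73 of the 87 genes (83.9%) and 54 of the 74 (73.0%), against 29.2% of all genes. These shares describe genes picked for a wide gap, and the gap itself favours opposite signs. The effect at P14, which is no term of the difference, lay between those at E16 and 8wk for 76 of the 87 (87.4%) and 67 of the 74 (90.5%), against 40.0% of all genes, and a wide gap again leaves more room between. The P14 libraries were in the fit that picked these genes: with the 16 libraries of E16 and 8wk alone, 35 genes were higher and 20 lower, and 49 of the 161 were among them. From E16 to 8wk, the 87 genes had a median change of -0.81 in control cells and of 0.63 in ME cells. The 74 genes had medians of 0.92 and -0.33, and all genes of 0.05 and -0.03. The difference equals the change in ME cells minus that in control cells. Picking genes by it therefore favours opposite changes in ME and control cells. All 87 higher genes and 68 of the 74 lower genes were protein-coding.

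**Figure D1:**
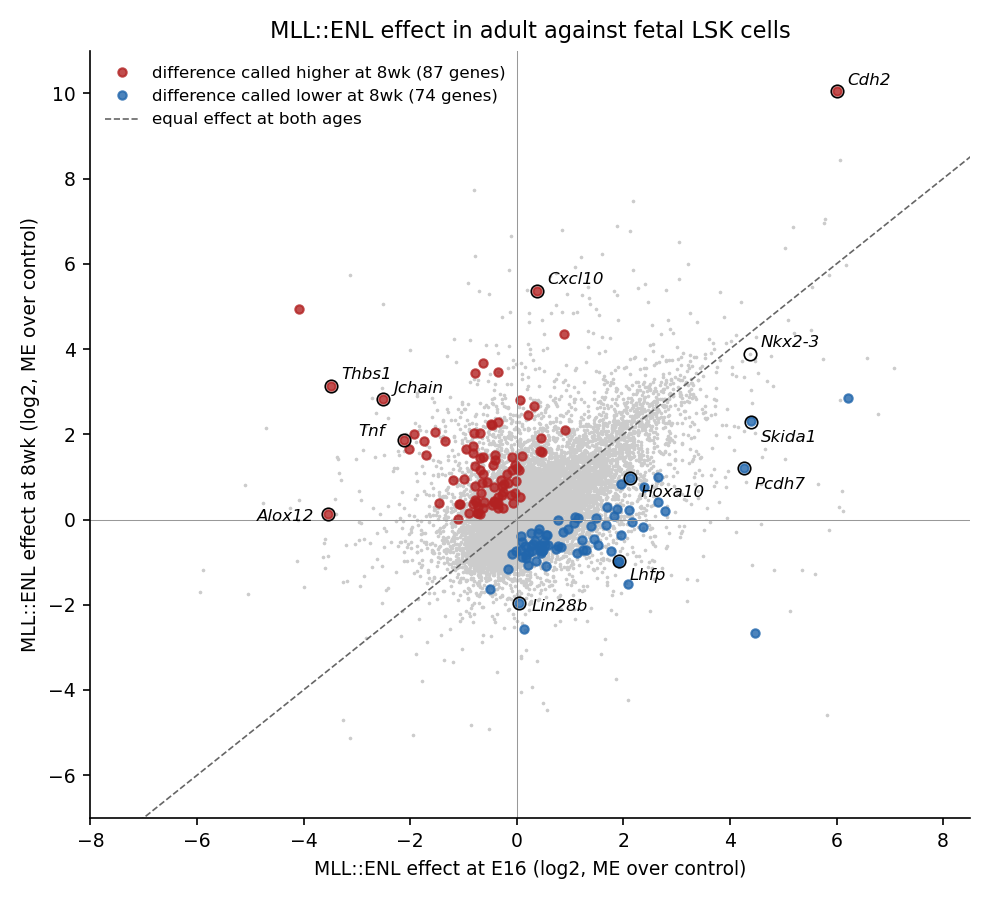
Effect of MLL::ENL at 8wk (y axis) against its effect at E16 (x axis), both as log2 of ME over control from the edgeR fit. Each grey point is 1 of the genes tested, red points are the 87 genes with a higher effect at 8wk, blue points are the 74 with a lower effect, and the dashed line marks equal effects; red genes lie mainly at the upper left and blue genes mainly at the lower right, while Nkx2-3 lies near the line.

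The sequences before the start of 4 genes from the groups below are shown because their products stand for the low-oxygen and inflammatory groups. All 4 carry a marked motif, so they do not show how common it is in their groups. Each is the 250 bases before the gene's start in RefSeq on GRCm38.p6, 5′ to 3′ on the gene's strand, and the motifs were chosen after the values were seen. In the first 3, capitals mark ACGTG, the core of the hypoxia response element. In Cxcl10, capitals mark GAAA and GAAA with any 2 bases between them, the interferon response element, once, and GGG and TTCC with any 3 bases between them, a form of the NF-kB site, at 2 places.
Egln3 (chr12:54203875-54204124, minus strand): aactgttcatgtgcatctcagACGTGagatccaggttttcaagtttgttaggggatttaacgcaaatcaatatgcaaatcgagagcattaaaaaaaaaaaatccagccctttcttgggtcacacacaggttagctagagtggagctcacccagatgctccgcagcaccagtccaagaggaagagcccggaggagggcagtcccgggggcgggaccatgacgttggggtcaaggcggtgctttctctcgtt
Slc2a1 (chr4:119108495-119108744, plus strand): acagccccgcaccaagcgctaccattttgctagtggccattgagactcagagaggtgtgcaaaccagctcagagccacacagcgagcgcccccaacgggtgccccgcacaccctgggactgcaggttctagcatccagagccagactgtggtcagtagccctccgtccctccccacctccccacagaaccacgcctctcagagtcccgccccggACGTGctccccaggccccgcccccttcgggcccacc
Pgam1 (chr19:41911621-41911870, plus strand): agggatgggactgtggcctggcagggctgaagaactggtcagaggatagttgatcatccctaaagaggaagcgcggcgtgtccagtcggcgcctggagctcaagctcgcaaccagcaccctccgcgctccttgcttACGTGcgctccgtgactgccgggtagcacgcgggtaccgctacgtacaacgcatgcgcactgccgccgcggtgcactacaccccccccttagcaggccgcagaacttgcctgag
Cxcl10 (chr5:92348890-92349139, minus strand): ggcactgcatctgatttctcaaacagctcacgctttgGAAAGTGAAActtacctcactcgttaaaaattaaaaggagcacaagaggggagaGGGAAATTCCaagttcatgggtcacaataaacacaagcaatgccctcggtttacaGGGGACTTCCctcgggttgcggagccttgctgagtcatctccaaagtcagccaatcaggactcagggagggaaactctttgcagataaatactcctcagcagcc

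Both strands were searched. ACGTG stands in the windows of 4998 of 27025 genes (18.5%), of 13 of the 21 glycolysis and hypoxia genes with a window, and of 4 of the 9 of those whose effect was higher at 8wk. The interferon element stands in the windows of 3.46% of genes and of 1 of the 22 inflammatory genes with a window, Cxcl10. The NF-kB letters stand in the windows of 5.31% of genes and of 12 of those 22. In the sequences shown, ACGTG ends 224 bases before the start of Egln3, 31 before that of Slc2a1 and 109 before that of Pgam1. In Cxcl10 the interferon element ends 203 bases before the start and the NF-kB letters 149 and 94 bases before it. A match is a description of these letters and not of a bound site.

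Skida1, the gene named in the study's title and one whose protein is little characterised, had a weaker response in adult cells. It stood at 0.541, 0.861, 0.741 and 0.44 CPM in the E16 controls and at 15.8, 14.6, 12.8 and 10.8 CPM in E16 ME. At 8wk Skida1 stood at 0.474, 0.55, 0.384 and 0.236 CPM in controls and at 2.37, 2.25, 1.66 and 1.86 CPM in ME. All ME libraries lay above all controls at both ages, and all E16 ME libraries lay above all 8wk ME libraries. The log2 effect was 4.39 ± 0.31 (SE) at E16, 4.29 at P14 and 2.30 ± 0.30 at 8wk, a difference of -2.09 ± 0.41 (edgeR, adjusted p = 0.017). Control levels at 8wk and E16 differed by -0.64 (adjusted p = 0.139) and ME levels by -2.73 (adjusted p = 4.69e-07). The difference was -2.05 without the 3 libraries that stood apart, and the call was lost without 8wk control replicate 2 (adjusted p = 0.0511) and with limma-voom (adjusted p = 0.059). Skida1 (ENSMUSG00000054074) lies at chr2:18040676-18049051 (GRCm38).

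The 2 genes joined in the fusion showed no such difference. Kmt2a rose by 0.85 ± 0.23 at E16 and 0.73 ± 0.23 at 8wk (log2, adjusted p = 0.00946 and 0.0183), with a difference of -0.12 whose 95% interval ran from -0.74 to 0.5. Mllt1 rose by 1.54 ± 0.29 and 1.48 ± 0.29 (adjusted p = 0.0006 and 0.000725), with a difference of -0.06 and an interval from -0.84 to 0.72. Mllt1 stood at 55.1, 58.1, 60 and 41.6 CPM in E16 ME and at 54, 54.8, 50.8 and 35.7 CPM in 8wk ME, so the ME groups overlapped. In both ME groups replicate 4 was the lowest for Mllt1. Which part of these counts came from the transgene and which from the endogenous genes cannot be read from gene counts.

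MLL fusion targets, of which 23 were tested, are a list of genes bound or kept on by MLL fusions in leukaemia. The effect was lower at 8wk for 3 of the 23 (Hoxa10, Skida1 and Hoxa5) and higher for none. Over all genes, 0.391% were called lower and 0.46% higher. The list's median difference was -0.40, against -0.07 over all genes tested, and 5 of 23 were above 0. At each single age 13 of the 23 rose, against 13.3% of all genes at E16 and 14.2% at 8wk, with median effects of 1.02 and 0.58. The 3 lower calls became 6 without the 3 libraries that stood apart and 7 without 8wk ME replicate 4 alone. Lower calls over all genes rose as well in these fits, from 74 to 613 and 361. The list's lower calls became 2 with limma-voom, with no filter and with only the 16 libraries of E16 and 8wk in the fit. The number was also 2 without E16 ME replicate 4, E16 control replicate 1 or 2, or 8wk control replicate 2 or 3.

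Hoxa10, a homeobox gene that drives self-renewal, stood at 10.7, 13.1, 12 and 13.7 CPM in the E16 controls and at 61.8, 48.2, 44.4 and 60.2 CPM in E16 ME. At 8wk Hoxa10 stood at 16.9, 21.3, 24.6 and 19.5 CPM in controls and at 34.1, 43, 39.8 and 44 CPM in ME. The groups did not overlap at either age, the 8wk controls lay above the E16 controls, and the 8wk ME libraries lay below the E16 ME libraries. The effect was 2.12 ± 0.16 at E16, 2.22 at P14 and 0.97 ± 0.15 at 8wk, a difference of -1.15 ± 0.21 (adjusted p = 0.0118) that kept its call in all 28 alternative settings. Hoxa5, of the same cluster and low throughout, had 0.584 to 0.763 CPM in E16 controls and 2.44 to 2.91 in E16 ME, against 0.786 to 1.08 and 1.60 to 1.72 at 8wk. Its difference was -1.11 ± 0.23 (adjusted p = 0.0209), and 4 of the 16 fits that left out 1 library lost the call.

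Other fusion targets moved by like amounts at both ages or were not called. Hoxa9, the best known partner of Meis1 in leukaemia, rose by 0.85 ± 0.11 at E16 and 0.58 ± 0.11 at 8wk (difference -0.27, adjusted p = 0.429, interval -0.57 to 0.03). Nkx2-3, a homeobox gene, rose by 4.38 ± 0.30 and 3.89 ± 0.29 (difference -0.48, adjusted p = 0.603, interval -1.22 to 0.26) and thus behaved unlike Skida1, although both were near 1 CPM in controls. The difference between Skida1 and Nkx2-3 was not tested. Mecom, a stem cell transcription factor, had effects of 2.38 and 0.93 (difference -1.45 ± 0.39, adjusted p = 0.0717), and Eya1 of 1.83 and 0.61 (difference -1.22 ± 0.30, adjusted p = 0.0516). Mecom and Eya1 were called without the 3 libraries that stood apart (adjusted p = 0.00233 and 0.00424). Meis1 had effects of 0.54 and 0.04 (difference -0.50, adjusted p = 0.329, and 0.0288 without these libraries). These 5 genes and Hoxa5 were chosen after their values were seen.

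The 9 Hoxb genes together stayed at 0.588 to 4.7 CPM in these libraries. The effect on Hoxb5, a marker of long-term stem cells, was 2.66 ± 0.40 at E16 and 0.40 ± 0.36 at 8wk, a difference of -2.26 ± 0.53 (adjusted p = 0.0405). It stood at 0.11 to 0.307 CPM in E16 controls and 0.823 to 2.08 in E16 ME, and at 0.614 to 0.925 and 0.677 to 1.71 at 8wk, where the groups overlapped. The call was lost in 12 of the 16 fits that left out 1 library. Among 5 tested Hoxb genes, 4 rose at E16 and none at 8wk, where 13.3% and 14.2% of all genes rose. Among so few genes, none at 8wk is near that share. The median difference was -1.86.

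**Figure D2:**
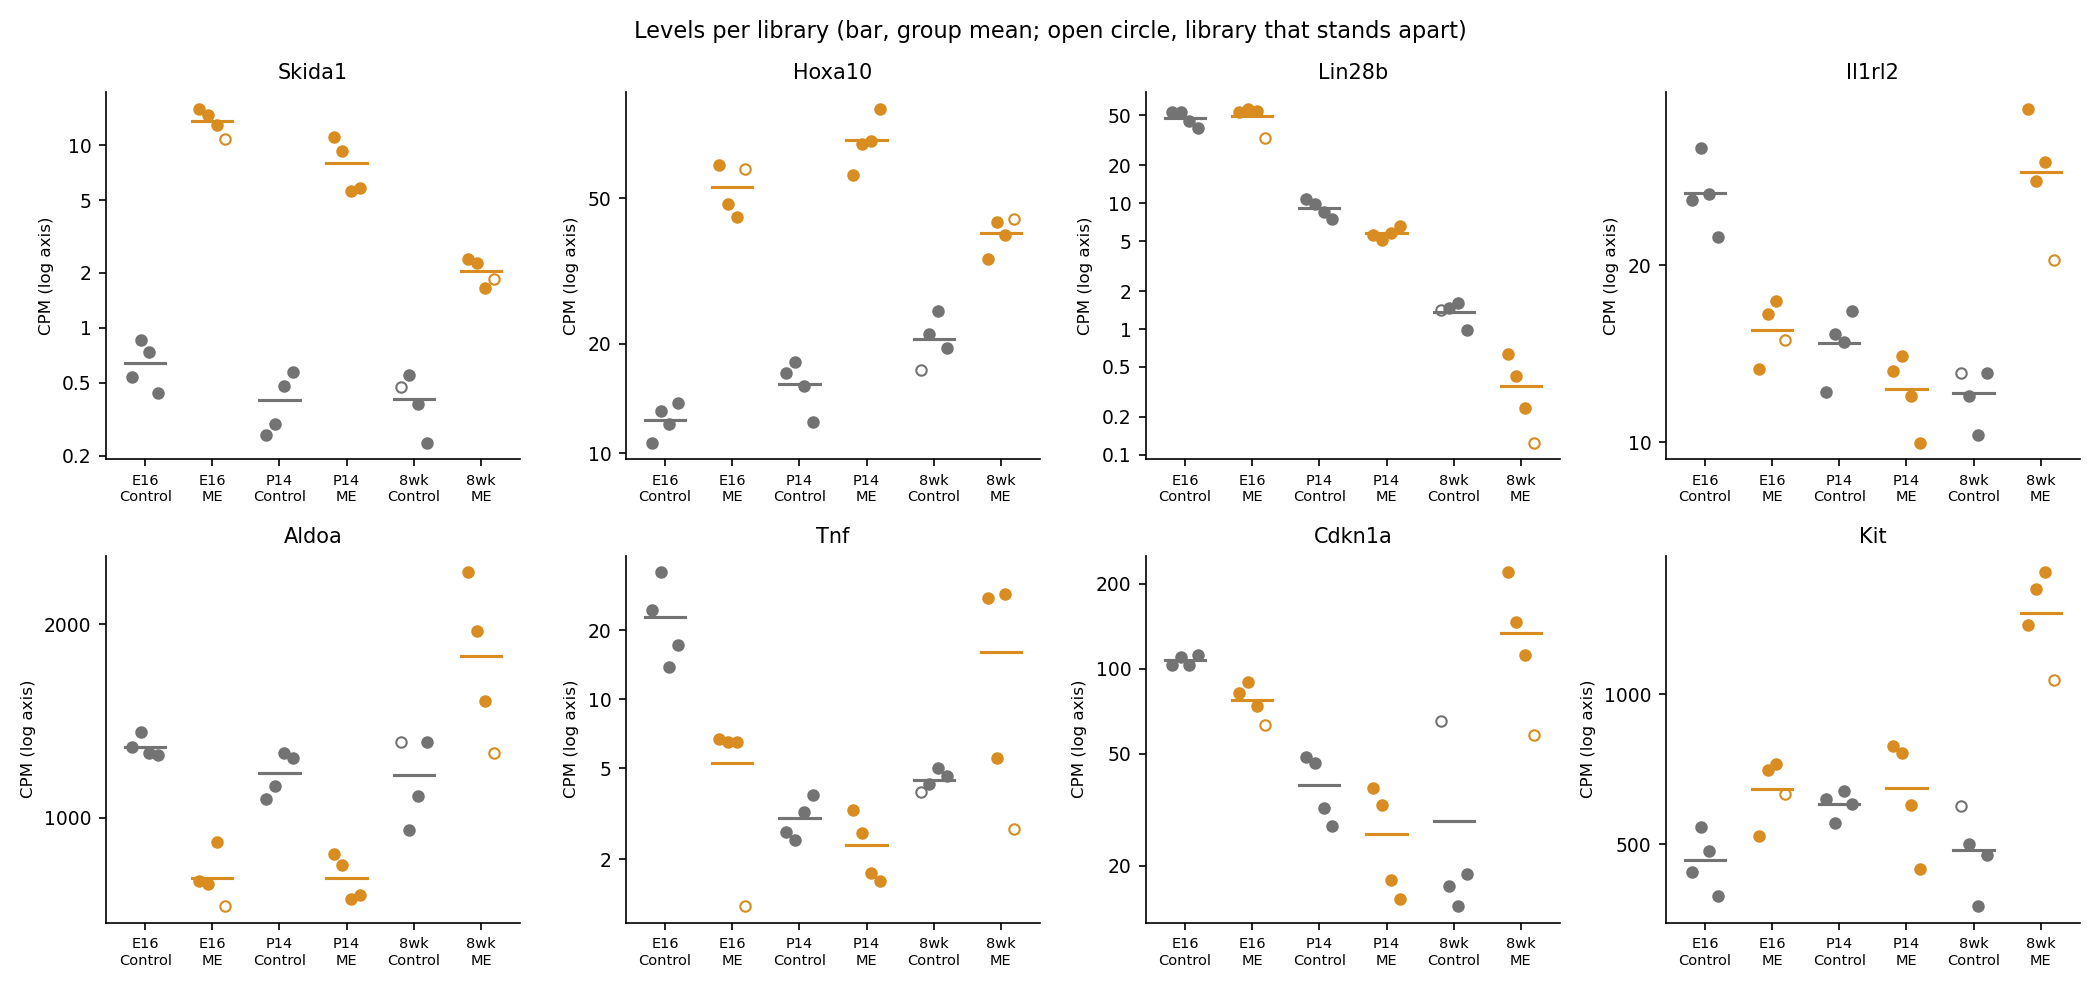
Levels in CPM, on a log axis, of Skida1, Hoxa10, Lin28b, Il1rl2, Aldoa, Tnf, Cdkn1a and Kit in each library of the 6 groups (x axis); each circle is 1 library, bars are group means and open circles are the 3 libraries that stood apart. Skida1 reached 10.8 to 15.8 CPM in E16 ME and 1.66 to 2.37 in 8wk ME, while Kit reached 1070 to 1760 in 8wk ME, above every library of the other groups.

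Genes of glucose breakdown and the low-oxygen response were the list with the most members called. All 22 were tested: 10 had a higher effect at 8wk and none a lower one, against 0.46% and 0.391% of all genes, and all 22 differences were above 0 (8197 of 18931 genes were). The median difference was 0.89. At E16, 12 of the 22 fell (8.47% of all genes fell) and none rose. At P14, 12 fell (9.35% of all genes) and none rose. At 8wk, 12 rose (14.2% of all genes) and none fell. The count of 10 became 13 without the 3 libraries that stood apart, a fit in which 3.89% of all genes were called higher. It fell to 3 without 8wk control replicate 2, to 5 without E16 control replicate 1 or 8wk ME replicate 1, and to 6 without E16 ME replicate 1, 2 or 4, E16 control replicate 2, 8wk ME replicate 2 or 8wk control replicate 3.

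Aldoa, the aldolase of the pathway, stood at 1290, 1360, 1260 and 1250 CPM in the E16 controls and at 796, 787, 915 and 728 CPM in E16 ME. At 8wk Aldoa stood at 1310, 955, 1080 and 1310 CPM in controls and at 2410, 1950, 1520 and 1260 CPM in ME. The E16 groups did not overlap. At 8wk they overlapped through 8wk ME replicate 4, which lay among the controls. The effect was -0.68 ± 0.14 at E16, -0.54 at P14 and 0.62 ± 0.14 at 8wk, a difference of 1.29 ± 0.20 (adjusted p = 0.00321) that kept its call in all 28 settings. Aldoa (ENSMUSG00000030695) lies at chr7:126795234-126800751 (GRCm38).

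Other enzymes of the same path followed. Eno1, an enolase, differed by 1.19 ± 0.21 (adjusted p = 0.00898), with effects of -0.77 at E16 and 0.41 at 8wk. It stood at 1620 to 1920 CPM in the E16 controls and 949 to 1230 in E16 ME, and at 1210 to 1790 and 1470 to 2520 at 8wk. Pfkp, a phosphofructokinase, differed by 1.03 ± 0.20 (adjusted p = 0.017). Tpi1, the triose phosphate isomerase, and Pgam1, the phosphoglycerate mutase, each differed by 0.90 (adjusted p = 0.0169 and 0.0217), and Gapdh by 0.89 ± 0.20 (adjusted p = 0.036). For Tpi1, Pfkp, Pgam1 and Gapdh the effect was -0.63 to -0.75 at E16 and 0.15 to 0.29 at 8wk, where none of the 4 was called, so most of their difference lay in the fall in fetal cells. Gpi1, the glucose phosphate isomerase, differed by 0.84 ± 0.19 (adjusted p = 0.031), falling at E16 by 0.42 and rising at 8wk by 0.42.

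Slc2a1 and Ndrg1 had more of their difference at 8wk, and Egln3 more at E16. Slc2a1, which encodes the glucose transporter GLUT1, stood at 168, 184, 179 and 183 CPM in the E16 controls and at 144, 144, 158 and 141 CPM in E16 ME. At 8wk Slc2a1 stood at 92.6, 89.9, 86.7 and 123 CPM in controls and at 259, 185, 113 and 116 CPM in ME. The 8wk ME libraries were spread widely, from within the controls to above all of them. The effect on Slc2a1 was -0.28 at E16 (adjusted p = 0.277) and 0.78 ± 0.18 at 8wk (adjusted p = 0.0028), a difference of 1.06 ± 0.25 (adjusted p = 0.045) whose call was lost in 12 of 16 fits without 1 library. Ndrg1, induced by low oxygen, had effects of -0.17 and 0.86 (difference 1.04 ± 0.24, adjusted p = 0.0411, call lost in 11 of 16). Egln3, the oxygen sensor PHD3, had effects of -0.78 ± 0.16 and 0.45 ± 0.16 (difference 1.23 ± 0.22, adjusted p = 0.00898) and kept its call in all 28 settings. Gapdh and Gpi1 each lost theirs in 10 of 16, Pgam1 in 5, and Tpi1 and Pfkp in 1 each. Gapdh, Pgam1 and Ldha have near-identical processed pseudogenes, so their counts are uncertain where reads were shared. Ldha, lactate dehydrogenase, fell by 0.64 at E16 but its difference of 0.55 did not pass (adjusted p = 0.246, interval 0.11 to 1.00).

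Related genes outside the list, chosen after their values were seen, had differences of the same sign. Slc16a3, the lactate exporter MCT4, stood at 20 to 39.1 CPM in the E16 controls, 12.2 to 22.6 in E16 ME, 34.6 to 84.3 in the 8wk controls and 598, 311, 153 and 97.9 in 8wk ME. Its difference was 2.74 ± 0.64 (adjusted p = 0.045), and 13 of 16 fits without 1 library lost the call. P4ha1, a prolyl hydroxylase of collagen, differed by 1.08 ± 0.23 (adjusted p = 0.0225), Ak4, a mitochondrial adenylate kinase, by 1.04 ± 0.17 (adjusted p = 0.00426), and G6pdx, which opens the pentose phosphate path, by 0.83 ± 0.19 (adjusted p = 0.0405). Ak4 kept its call in all 28 settings, while G6pdx lost it in 11 of 16 fits without 1 library and P4ha1 in 4. By contrast, the 26 listed mitochondrial respiratory chain genes had a median difference of -0.07, equal to that of all genes, and none was called. Outside that list, 2 genes of the chain were called, mt-Cytb lower and Cox6a2, given below, higher. For mt-Cytb, chosen after its values were seen, the difference was -0.99 ± 0.21 (adjusted p = 0.0273). Its mean was 603 CPM in E16 controls, 537 in E16 ME, 991 in 8wk controls and 445 in 8wk ME.

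**Figure D3:**
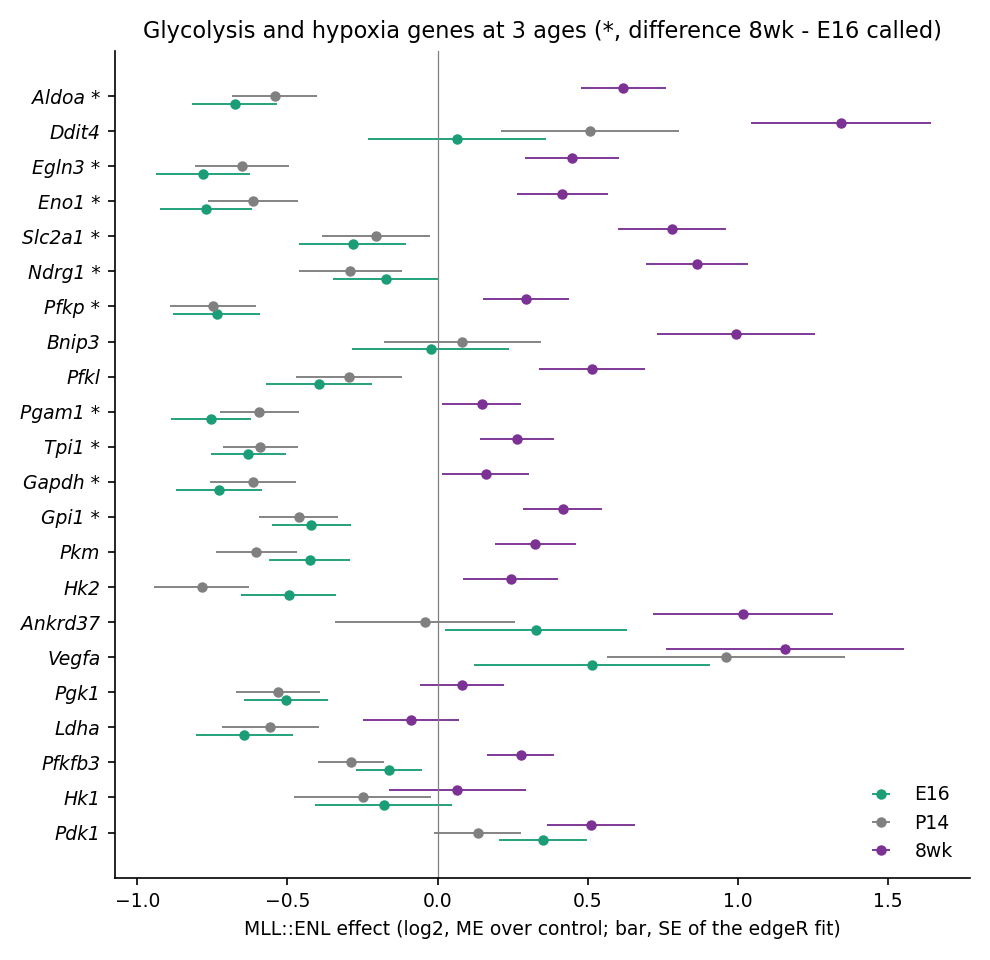
Effect of MLL::ENL (x axis, log2 of ME over control, bars are SE of the edgeR fit) at E16, P14 and 8wk for the 22 glycolysis and hypoxia genes (y axis); an asterisk marks the 10 whose effect was higher at 8wk. For the called enzymes the E16 and P14 points lie together below 0 and the 8wk point lies to their right from 0.15 for Pgam1 to 0.62 for Aldoa.

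Inflammatory and NF-kB feedback genes, cytokines and brakes that NF-kB switches on, responded chiefly in adult cells. Of the 30, 25 rose and none fell at 8wk, 1 rose and 3 fell at E16, and 2 rose and 1 fell at P14. The share of all genes that rose was 14.2%, 13.3% and 12.7%, and the list's median effect was 2.01, 0.13 and 0.46. The effect was higher at 8wk for 4 (Cxcl10, Tnf, Nfkbiz and Ccl4) and lower for none, against 0.46% and 0.391% of all genes. The list's median difference was 2.04, and 29 of 30 differences were above 0. The number called was 20 without the 3 libraries that stood apart, and 19 without 8wk ME replicate 4 alone. Higher calls over all genes rose as well in these fits, from 87 to 749 and 378. The list's number was 0 without 8wk control replicate 2, with limma-voom, with no filter, with only the 16 libraries in the fit and with a Y-linked covariate. The list summed to 673 CPM in 8wk ME replicate 4 and to 1060 to 2030 in the other 8wk ME libraries, against 457 to 623 in the 8wk controls.

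Cxcl10, a chemokine of the interferon response, stood at 11.3, 21.6, 15.1 and 5.28 CPM in the E16 controls and at 14.6, 13.3, 9.68 and 31.9 CPM in E16 ME. At 8wk Cxcl10 stood at 0.67, 0.315, 0.419 and 0.644 CPM in controls and at 36.5, 25.2, 23.3 and 0.878 CPM in ME. The E16 groups overlapped and the 8wk groups did not, although 8wk ME replicate 4 lay just above the controls. The effect was 0.38 at E16 (adjusted p = 0.719) and 5.37 ± 0.79 at 8wk (adjusted p = 7.37e-05), a difference of 4.98 ± 0.98 (adjusted p = 0.0188). It was 6.02 without the 3 libraries that stood apart, and 1 fit without a library lost the call, that without 8wk control replicate 2 (adjusted p = 0.0578).

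Tnf, the cytokine TNF, behaved otherwise in that it also fell in the fetus. It stood at 24.6, 35.9, 13.8 and 17.3 CPM in the E16 controls and at 6.69, 6.54, 6.54 and 1.25 CPM in E16 ME. At 8wk Tnf stood at 3.95, 4.27, 4.99 and 4.63 CPM in controls and at 27.6, 5.55, 28.8 and 2.72 CPM in ME. The 8wk ME libraries split into 2 near 28 CPM, 1 just above the controls and 1 below them. The effects were -2.12 ± 0.57 and 1.86 ± 0.57 (adjusted p = 0.0111 and 0.0188), a difference of 3.98 ± 0.81 (adjusted p = 0.0209). The call was lost without E16 control replicate 2, 8wk ME replicate 1 or 8wk control replicate 2 (adjusted p = 0.0541, 0.0575 and 0.0589).

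Nfkbiz, an atypical nuclear inhibitor of NF-kB, fell at E16 by 1.93 ± 0.58 and rose at 8wk by 2.00 ± 0.58 (difference 3.93 ± 0.82, adjusted p = 0.0246). In 8wk ME it stood at 26.5, 2.96, 12.3 and 2.42 CPM, against 2.04 to 3.33 in the 8wk controls, so the rise rested on replicates 1 and 3. Ccl4, a chemokine of monocytes, differed by 2.74 ± 0.60 (adjusted p = 0.0291), with 77, 22.2, 46.5 and 7.25 CPM in 8wk ME against 4.19 to 6.48 in the controls. Zc3h12a, an RNase that degrades cytokine transcripts and is not on the list, differed by 3.22 ± 0.75 (adjusted p = 0.0432), with 19.8, 4.43, 8.04 and 1.99 CPM in 8wk ME. Nfkbid, another nuclear inhibitor of NF-kB, and Nlrc4, an inflammasome sensor, differed by 1.85 ± 0.39 and 2.10 ± 0.43 (adjusted p = 0.024 and 0.0197). For Nfkbid most of this lay at E16, where it fell by 1.47, and for Nlrc4 at 8wk, where it rose by 1.47. Nfkbiz and Nfkbid each lost the call in 7 of 16 fits without 1 library, Ccl4 and Zc3h12a in 10, and Nlrc4 in 2. Ccl4, Nfkbid and Nlrc4 were chosen after their values were seen.

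Markers of mature myeloid cells moved with these genes in part. The neutrophil markers summed to 1170 to 6130 CPM in the E16 controls, 109 to 1100 in E16 ME, 98.1 to 1030 in the 8wk controls and 183 to 1730 in 8wk ME. The 22 monocyte and macrophage markers summed to 640 to 1460, 247 to 866, 192 to 862 and 227 to 1230 CPM. Within 8wk ME the 3 libraries with high neutrophil sums were also the 3 with the highest inflammatory sums. E16 ME replicate 4 was lowest in both sums, and 8wk control replicate 1 was highest of its group in both. E16 control replicate 1 had the highest neutrophil sum, but its inflammatory sum of 796 CPM lay within its group's 682 to 946. From E16 controls to E16 ME the median neutrophil sum went from 1800 to 950 CPM, and the inflammatory one from 776 to 801. Il1b is on both lists. All 17 neutrophil markers had at least 1 count in every one of the 4 groups, and 1 monocyte marker was at 0 in the 8wk controls. Whether more mature cells or more RNA per cell lay behind the myeloid sums cannot be told apart in bulk samples. The part of these cells in the inflammatory result was not tested.

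Among 21 tested p53 targets the effect was higher at 8wk for 4 (Pmaip1, Bax, Cdkn1a and Sesn2) and lower for none. Over all genes, 0.46% were called higher and 0.391% lower. The list's median difference was 0.56, and 19 of 21 were above 0. At 8wk, 13 of the list rose (14.2% of all genes rose) and 1 fell. At E16, 4 rose and 2 fell, against 13.3% and 8.47% of all genes, and the median effect was -0.02. The number called became 10 without the 3 libraries that stood apart, 7 without 8wk control replicate 1, 6 without 8wk ME replicate 4 and 1 without 8wk control replicate 2. Higher calls over all genes in these fits were 749, 504, 378 and 22, against 87 with all libraries. The list's number was 0 with only the 16 libraries of E16 and 8wk in the fit and 2 with the Y-linked covariate. It was also 2 in each of the fits without any 1 of the E16 ME libraries, E16 control replicates 1 to 3, 8wk ME replicates 1 to 3 and 8wk control replicates 3 and 4.

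Pmaip1, which encodes the death protein NOXA, stood at 39.5, 49.4, 40 and 38.5 CPM in the E16 controls and at 27.9, 34, 23.8 and 10.7 CPM in E16 ME. At 8wk Pmaip1 stood at 9.3, 3.96, 3.32 and 5.28 CPM in controls and at 35, 20.6, 25.4 and 8.13 CPM in ME. All E16 ME libraries lay below the E16 controls, and at 8wk 3 ME libraries lay above all controls while replicate 4 lay among them. The difference was 2.82 ± 0.52 (adjusted p = 0.0118), with an effect of -0.80 at E16 that was not called (adjusted p = 0.124) and of 2.02 ± 0.38 at 8wk. Its call was lost when only the 16 libraries were fitted (adjusted p = 0.0573).

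Cdkn1a, the cell cycle inhibitor p21, stood at 103, 110, 103 and 112 CPM in the E16 controls and at 81.8, 89.8, 74 and 63.3 CPM in E16 ME. At 8wk Cdkn1a stood at 65.1, 16.9, 14.4 and 18.7 CPM in controls and at 220, 146, 112 and 58.2 CPM in ME. In both 8wk groups the library that stood apart was the one nearest to the other group. The effect was -0.47 at E16 (adjusted p = 0.462) and 2.21 ± 0.44 at 8wk, a difference of 2.69 ± 0.60 (adjusted p = 0.0363) that lost its call in 13 of 16 fits without 1 library and became 3.64 (adjusted p = 8.24e-05) without the 3 libraries that stood apart. Bax, the pore-forming death protein, fell by 0.37 at E16 and rose by 0.36 at 8wk (difference 0.73 ± 0.15, adjusted p = 0.0174). Sesn2, a stress-induced brake on mTORC1 that is also an ATF4 target, differed by 1.22 ± 0.29 (adjusted p = 0.0448) and lost its call in 13 of 16. Of 12 tested cell cycle inhibitors, Cdkn1a was the one called. The median differences of the 25 mitosis genes and the 28 DNA replication genes were -0.07 and -0.08, and none of either list was called.

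Most platelet and megakaryocyte genes fell in fetal ME cells. Of 15 tested, 11 fell at E16 (8.47% of all genes fell) and none rose, with a median effect of -2.53, while at 8wk 1 fell (14.3% of all genes) and none rose, with a median of -0.32. The effect was higher at 8wk for Alox12 and Plek and lower for none, against 0.46% and 0.391% of all genes. The list's median difference was 1.60, and 13 of 15 were above 0. The number called became 8 without the 3 libraries that stood apart, 7 without 8wk control replicate 1, 4 without 8wk ME replicate 4 or E16 ME replicate 3 and with limma-voom, and 5 with the DESeq2 Wald test. Higher calls over all genes in these fits were, in the same order, 749, 504, 378, 88, 63 and 349, against 87 as first fitted. The list summed to 859 to 1550 CPM in the E16 controls and to 405 to 514 in E16 ME, with no overlap, and to 567 to 1200 and 642 to 756 at 8wk.

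Alox12, the platelet lipoxygenase, stood at 22.6, 11.4, 56.9 and 33.1 CPM in the E16 controls and at 2.37, 3.01, 3.73 and 1.48 CPM in E16 ME. At 8wk it was at 0.682 to 1.99 CPM in controls and 1.11 to 1.40 in ME. The E16 controls were thus the one high group. The effect was -3.55 ± 0.41 at E16 and 0.12 ± 0.40 at 8wk, a difference of 3.67 ± 0.56 (adjusted p = 0.00314). Plek, the platelet protein pleckstrin, fell from 296 to 382 CPM in the E16 controls to 119 to 189 in E16 ME, and overlapped at 8wk at 217 to 365 and 293 to 414. Its difference was 1.44 ± 0.22 (adjusted p = 0.00314). Alox12 and Plek kept their calls in all 28 settings.

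Thbs1, thrombospondin 1 of platelet granules and matrix, had the largest difference of the genes that the naming rule took. It stood at 124, 69.8, 280 and 137 CPM in the E16 controls and at 3.3, 17.9, 32.1 and 1.12 CPM in E16 ME. At 8wk Thbs1 stood at 6.01, 1.42, 0.367 and 1.57 CPM in controls and at 28.8, 25.9, 22.8 and 6.58 CPM in ME. Groups did not overlap at either age and lay in opposite order. The effects were -3.49 ± 0.83 and 3.14 ± 0.84, with 0.01 at P14, and the difference was 6.63 ± 1.18 (adjusted p = 0.011). Its call was lost with only the 16 libraries of E16 and 8wk in the fit (adjusted p = 0.0515). Of other platelet genes, chosen after their values were seen, Ppbp differed by 4.70 ± 1.15 (adjusted p = 0.0528), Gp1ba by 2.30 ± 0.59 (adjusted p = 0.0605) and Pf4 by 1.43 ± 1.03 (adjusted p = 0.566). Ppbp and Gp1ba were called without the 3 libraries that stood apart (adjusted p = 0.0035 and 0.00124).

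Among genes typical of fetal progenitors, Lin28b and Hmga2 fell in adult ME cells and not in fetal ones. Lin28b, the RNA-binding protein that holds progenitors in a fetal state, stood at 53.2, 53, 45 and 39.5 CPM in the E16 controls and at 53.3, 56.6, 53.9 and 33.3 CPM in E16 ME. At 8wk Lin28b stood at 1.41, 1.47, 1.61 and 0.987 CPM in controls and at 0.631, 0.427, 0.237 and 0.125 CPM in ME. The E16 groups overlapped, and at 8wk every ME library lay below every control. The effect was 0.05 ± 0.24 at E16, -0.67 at P14 (adjusted p = 0.0533) and -1.96 ± 0.30 at 8wk, where the adjusted p was 6.81e-05, a difference of -2.01 ± 0.38 (adjusted p = 0.0144).

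Hmga2, a chromatin protein downstream of Lin28b, stood at 61.5 to 70.7 CPM in the E16 controls and 83.8 to 104 in E16 ME, and at 6.01 to 9.96 and 3.56 to 6.75 at 8wk. Its effect was 0.44 at E16 (adjusted p = 0.0534) and -0.72 ± 0.17 at 8wk, a difference of -1.16 ± 0.23 (adjusted p = 0.0174), and the call was lost without 8wk control replicate 2 (adjusted p = 0.054) and with the Y-linked covariate (0.0559). With only the 16 libraries in the fit neither Hmga2 (adjusted p = 0.0778) nor Lin28b (0.0621) was called. Of 17 tested fetal genes, these 2 were the ones called (lower), against 0.391% of all genes. At 8wk, 5 of the 17 fell and 1 rose, against 14.3% and 14.2% of all genes. At E16, 2 fell and 1 rose, against 8.47% and 13.3%. The median difference was -0.41 with all libraries and -0.17 without the 3 that stood apart. Igf2bp3, another fetal RNA-binding protein, had a difference of opposite sign (0.99 ± 0.27, adjusted p = 0.0739, and 0.00558 without these 3). In that smaller set Lin28a, Igf2bp3 and Mest were called higher and Hmga2 and Lin28b lower.

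Growth factor and cytokine receptors had 2 of 28 called higher and none lower, against 0.46% and 0.391% of all genes. Kit, the receptor of stem cell factor and a marker used to sort these cells before culture, stood at 440, 541, 485 and 394 CPM in the E16 controls and at 519, 705, 725 and 632 CPM in E16 ME. At 8wk Kit stood at 596, 500, 376 and 476 CPM in controls and at 1380, 1630, 1760 and 1070 CPM in ME. The 8wk ME libraries were the highest of all, and the E16 groups overlapped. The effect was 0.47 ± 0.17 at E16 (adjusted p = 0.0501), 0.11 at P14 and 1.59 ± 0.17 at 8wk (adjusted p = 2.33e-06), a difference of 1.11 ± 0.24 (adjusted p = 0.0271) that lost its call in 10 of 16 fits without 1 library. Ly6a, which encodes the other sorting marker, had effects of -0.32 and 1.06 (difference 1.38 ± 0.37, adjusted p = 0.075, and 0.00984 without the 3 libraries that stood apart).

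Il1r1, the signalling receptor of interleukin 1, stood at 101, 113, 115 and 98.3 CPM in the E16 controls and at 46.1, 52.9, 56.2 and 44.8 CPM in E16 ME. At 8wk Il1r1 stood at 120 to 129 CPM in controls and at 104 to 148 in ME. It fell in fetal cells by 1.10 ± 0.12 and had an effect of 0.01 ± 0.12 in adult cells, a difference of 1.11 ± 0.17 (adjusted p = 0.00314). Its neighbours on chromosome 1 were called as well. Il1r2, the decoy receptor (chr1:40074079-40125231), differed by 1.58 ± 0.27 (adjusted p = 0.00546). Il1rl2, the receptor of interleukin 36 (chr1:40324610-40367562), had a difference of 2.02 ± 0.23 (adjusted p = 0.000211).

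Il1rl2 stood at 25.8, 31.7, 26.4 and 22.3 CPM in the E16 controls and at 13.3, 16.5, 17.4 and 14.9 CPM in E16 ME. At 8wk Il1rl2 stood at 13.1, 12, 10.3 and 13.1 CPM in controls and at 36.9, 27.8, 30 and 20.4 CPM in ME. The order of ME and control was reversed between the ages with no overlap at either. All 3 genes kept their calls in all 28 settings. The next genes of the cluster, Il1rl1, Il18r1 and Il18rap, had differences of 0.61, 0.27 and 0.55 and were not called (adjusted p = 0.8, 0.805 and 0.103). Il18rap was called without the 3 libraries that stood apart (adjusted p = 0.0172). Apart from Il1r1, these genes were chosen after their values were seen.

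Nox1, the membrane enzyme of a superoxide-producing oxidase, stood at 26.7, 38.7, 19 and 18.9 CPM in the E16 controls and at 6.92, 11.9, 8.09 and 3.83 CPM in E16 ME. At 8wk Nox1 stood at 1.03 to 1.90 CPM in controls and at 12.5, 3.03, 3.32 and 1.04 CPM in ME. It fell by 1.75 ± 0.53 and rose by 1.85 ± 0.55, a difference of 3.60 ± 0.76 (adjusted p = 0.0263). Its activator Noxa1 differed by 3.58 ± 0.72 (adjusted p = 0.0178) and Ncf1, the phagocyte organiser p47phox, by 1.84 ± 0.30 (adjusted p = 0.0049). Noxa1 and Ncf1 were chosen after their values were seen, and Noxa1 stayed at or under 1.38 CPM. Ncf1 kept its call in all 28 settings, while Nox1 lost it in 7 of 16 fits without 1 library and Noxa1 in 3. Ncf1 is also high in neutrophils and monocytes, whose sums are given above, and their part in its difference was not tested.

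Further genes with a higher effect at 8wk included transporters and enzymes. Slc39a4, a zinc importer, fell from 20.1 to 31.4 CPM in the E16 controls to 2.04 to 9.27 in E16 ME, and stood at 4.77 to 9.08 and 7.77 to 55.3 at 8wk (difference 3.69 ± 0.65, adjusted p = 0.00898). Slc2a6, a lysosomal hexose transporter, had 104, 33.8, 32.4 and 4.01 CPM in 8wk ME against 2.09 to 7.63 in the controls (difference 3.82 ± 0.86, adjusted p = 0.0359). Gstt1, a glutathione transferase, differed by 3.18 ± 0.51 (adjusted p = 0.00481), and Cox6a2, the heart and muscle form of a cytochrome c oxidase subunit, by 4.22 ± 0.86 (adjusted p = 0.0214). Slc39a4 and Gstt1 kept their calls in all 28 settings. Slc2a6 lost its call in 13 of 16 fits without 1 library and Cox6a2 in 4. Cox6a2, whose 8wk groups overlapped, also lost it with limma-voom (adjusted p = 0.0753), no filter (0.0572) and the Y-linked covariate (0.0623). For Slc39a4, Slc2a6, Gstt1 and Cox6a2 the lowest 8wk ME library was replicate 4.

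Jchain, the joining chain of IgA and IgM made by plasma cells, differed by 5.35 ± 1.13 (adjusted p = 0.0272), and the size of this difference rested on 8wk ME replicate 4. That library held 154 CPM, the other 8wk ME libraries 7.13 to 9.09 and the 8wk controls 3.43 to 12.6. Without the 3 libraries that stood apart its difference was 2.56 (adjusted p = 0.0109). At E16 it fell, from 2.86 to 5.53 CPM in controls to 0.42 to 1.13 in ME. The call was lost in 7 of 16 fits without 1 library, that without 8wk ME replicate 4 not among them, with limma-voom (adjusted p = 0.147) and with only the 16 libraries in the fit (0.0993).

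Cdh2, the adhesion molecule N-cadherin, rose at both ages. It stood at 0.567 to 0.936 CPM in the E16 controls and at 32.3 to 61 in E16 ME, and at 9.45 to 15 CPM in 8wk ME. The 4 adult control libraries held 2 counts between them, both in replicate 4 (0.0429 CPM). The ratio of pooled levels was 66.6 at E16 (95% counting interval 55.6 to 80.3) and 1350 at 8wk (374 to 11200). The fitted difference of 4.04 ± 0.77 (adjusted p = 0.0146) depends on how those 2 counts are smoothed, and limma-voom did not call it (adjusted p = 0.113). In level, Cdh2 was higher in E16 ME than in 8wk ME. Tpm4, a tropomyosin and the other sort of gene that rose at both ages, had effects of 0.90 ± 0.13 and 2.11 ± 0.14 (difference 1.2 ± 0.18, adjusted p = 0.00314). Cd44, an adhesion receptor for hyaluronan, fell by 0.35 at E16 and rose by 0.52 at 8wk (difference 0.87 ± 0.15, adjusted p = 0.00547). Tpm4 and Cd44 were chosen after their values were seen and kept their calls in all 28 settings.

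Genes with a lower effect at 8wk included adhesion, trafficking and signalling genes that rose in fetal ME cells. Pcdh7, a protocadherin, stood at 2.22, 1.41, 1.33 and 0.826 CPM in the E16 controls and at 22.2, 28.5, 31.4 and 30.4 CPM in E16 ME. At 8wk Pcdh7 stood at 0.576 to 1.30 CPM in controls and at 1.62 to 3.08 in ME. It rose at both ages, by 4.27 ± 0.37 and 1.21 ± 0.34, with 1.91 at P14, and the difference was -3.06 ± 0.48 (adjusted p = 0.00352). Ranbp9, a scaffold protein of an E3 ubiquitin ligase complex, also rose at both ages, by 2.65 ± 0.20 and 1.00 ± 0.19 (difference -1.65 ± 0.27, adjusted p = 0.0049). Pcdh7 and Ranbp9 kept their calls in all 28 settings.

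Retreg1, a receptor for autophagy of the endoplasmic reticulum, stood at 22.7, 18, 19.4 and 22.7 CPM in the E16 controls and at 62.6, 65.8, 65.7 and 97.7 CPM in E16 ME. At 8wk Retreg1 stood at 67.7 to 87 CPM in controls and at 65.8 to 102 in ME. Of the E16 ME libraries 3 lay just below the adult controls, and replicate 4 above them. The effect was 1.82 ± 0.15 at E16, 1.08 at P14 and 0.09 ± 0.15 at 8wk, where it was not called. The difference was -1.73 ± 0.21 (adjusted p = 0.000252). Crispld1, a secreted protein, had the same effects in kind: 2.16 ± 0.21 at E16 and -0.05 ± 0.19 at 8wk (difference -2.21 ± 0.28, adjusted p = 0.000465). Its E16 ME libraries, at 4.75 to 7.24 CPM, stayed below the adult ones, at 21 to 43.2. Uchl1, a neuronal ubiquitin hydrolase, rose by 1.67 ± 0.24 at E16 (difference -1.79 ± 0.33, adjusted p = 0.0106). Retreg1, Crispld1 and Uchl1 stood higher in every 8wk control than in every E16 control, and kept their calls in all 28 settings.

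Some genes rose in fetal and fell in adult ME cells. Lhfp, a tetraspan membrane protein, stood at 1.03, 0.799, 0.174 and 1.16 CPM in the E16 controls and at 2.24, 2.61, 2.85 and 4.28 CPM in E16 ME, and at 6.07, 4.35, 4 and 5.84 CPM in the 8wk controls and 3.13, 2.09, 2.69 and 2.34 CPM in 8wk ME. ME and control changed places between the ages without overlap, and the 2 ME groups lay in nearly the same range. The effects were 1.92 ± 0.36 and -0.98 ± 0.34 (difference -2.91 ± 0.50, adjusted p = 0.00583). Btc, the growth factor betacellulin, did likewise, with effects of 1.77 ± 0.27 and -0.73 ± 0.26 (difference -2.50 ± 0.38, adjusted p = 0.00314). Smim10l2a, a small membrane protein, had effects of 0.54 ± 0.19 and -1.10 ± 0.19 (difference -1.64 ± 0.27, adjusted p = 0.00515). Lhfp, Btc and Smim10l2a kept their calls in all 28 settings.

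Of the rest, Kctd12b (difference -1.91 ± 0.36, adjusted p = 0.012), Bdh2, a short-chain dehydrogenase (-1.96 ± 0.43, 0.0273), Sox18, an endothelial transcription factor (-2.58 ± 0.57, 0.0278) and Pde1b, a phosphodiesterase (-1.70 ± 0.41, 0.0459) rose at E16 and were not called at 8wk. Prex2, a Rac activator chosen after its values were seen, did the same (-2.55 ± 0.60, adjusted p = 0.0405). Pde1b, Prex2, Bdh2 and Sox18 lost their calls in 12, 11, 9 and 7 of 16 fits without 1 library, and Kctd12b in none. Ezh2, the methyltransferase of Polycomb complex 2, was the one called of 20 Polycomb genes. It stood at 86.9 to 99.2 CPM in the E16 controls and 95.4 to 103 in E16 ME, and at 94.9 to 110 and 72.8 to 87.7 at 8wk, where ME lay below the controls. Its difference was small, -0.46 ± 0.11 (adjusted p = 0.0418), and its call was lost in 13 of 16 such fits.

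Several lists of differentiated cells had large median differences with no member called. The median was 3.78 for 17 mature neutrophil markers, 2.01 for 22 monocyte and macrophage markers, 1.24 for 18 granulocyte-monocyte progenitor genes and 1.11 for 16 genes of dendritic cells and MHC class II. Without the 3 libraries that stood apart, 16 of 17 neutrophil markers and 14 of 22 monocyte and macrophage markers were called higher. Their medians were then 7.38 and 3.61, and 3.89% of all genes were called higher in that fit. Those 3 libraries were singled out by myeloid genes, the neutrophil markers among them. These counts are therefore partly built in and lend no support of their own. At 8wk, 11 of the 22 monocyte and macrophage markers rose with all libraries in the fit, and at E16, 1 rose and 1 fell. The neutrophil markers of 8wk control replicate 1 (1030 CPM) reached the range of E16 ME, and those of 8wk ME replicate 4 (183 CPM) lay near the other 8wk controls, so the size of this difference turned on these libraries.

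**Figure D4:**
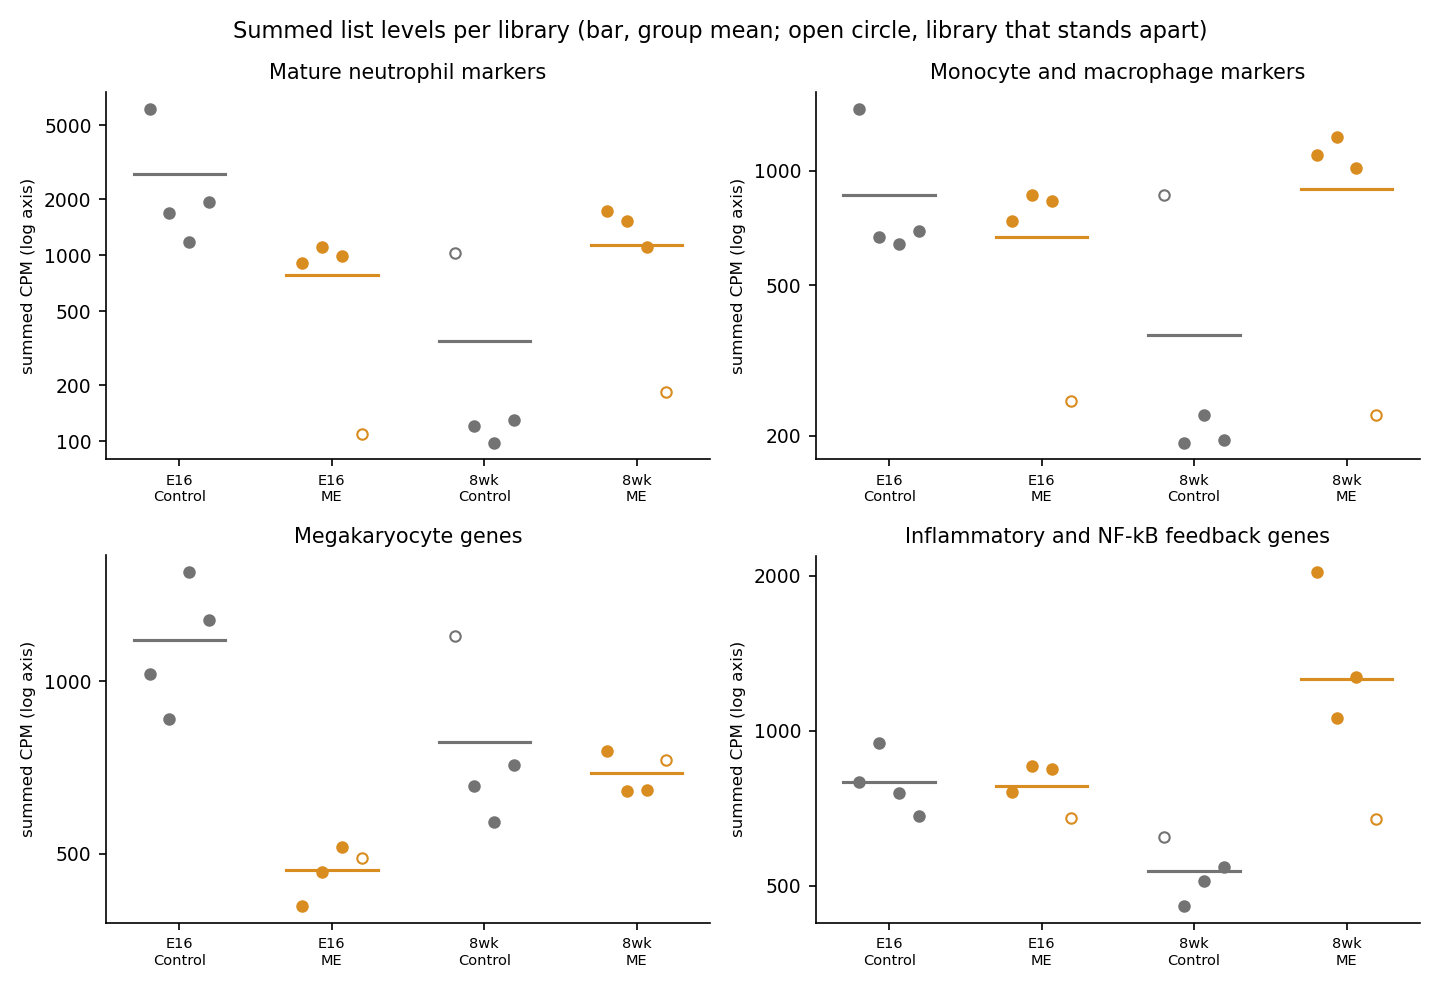
Summed level in CPM (y axis, log scale) of neutrophil, monocyte and macrophage, megakaryocyte, and inflammatory genes in each library of the 4 groups (x axis); each circle is 1 library, bars are group means and open circles are the 3 libraries that stood apart. The neutrophil sums range from 98.1 to 6130 CPM, and the E16 ME megakaryocyte sums of 405 to 514 lie below all E16 controls.

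The median difference was 0.06 for 22 Myc and ribosome biogenesis genes, -0.08 for 30 cytosolic ribosomal proteins, 0.05 for 14 heat shock genes and 0.01 for 17 lymphoid-primed progenitor genes, and none of their members was called. These medians are near the -0.07 of all genes. B-lineage genes, a list that bears on the study's title, had a median of -0.13 over 22 genes with none called. Further from it, the 19 stem cell markers had a median of -0.66, with Kit higher and Hoxb5 lower. Of 32 type I interferon response genes, 9 rose at E16, 23 at P14 and 26 at 8wk (13.3%, 12.7% and 14.2% of all genes rose), with a median difference of 0.76 and none called. The 20 immediate early genes had a median of 1.15, the 19 ATF4 genes 0.91 with Sesn2 called, the 20 cholesterol synthesis genes 0.30, the 15 MHC class I genes 0.27 and the 20 erythroid genes 0.53.

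**Figure D5:**
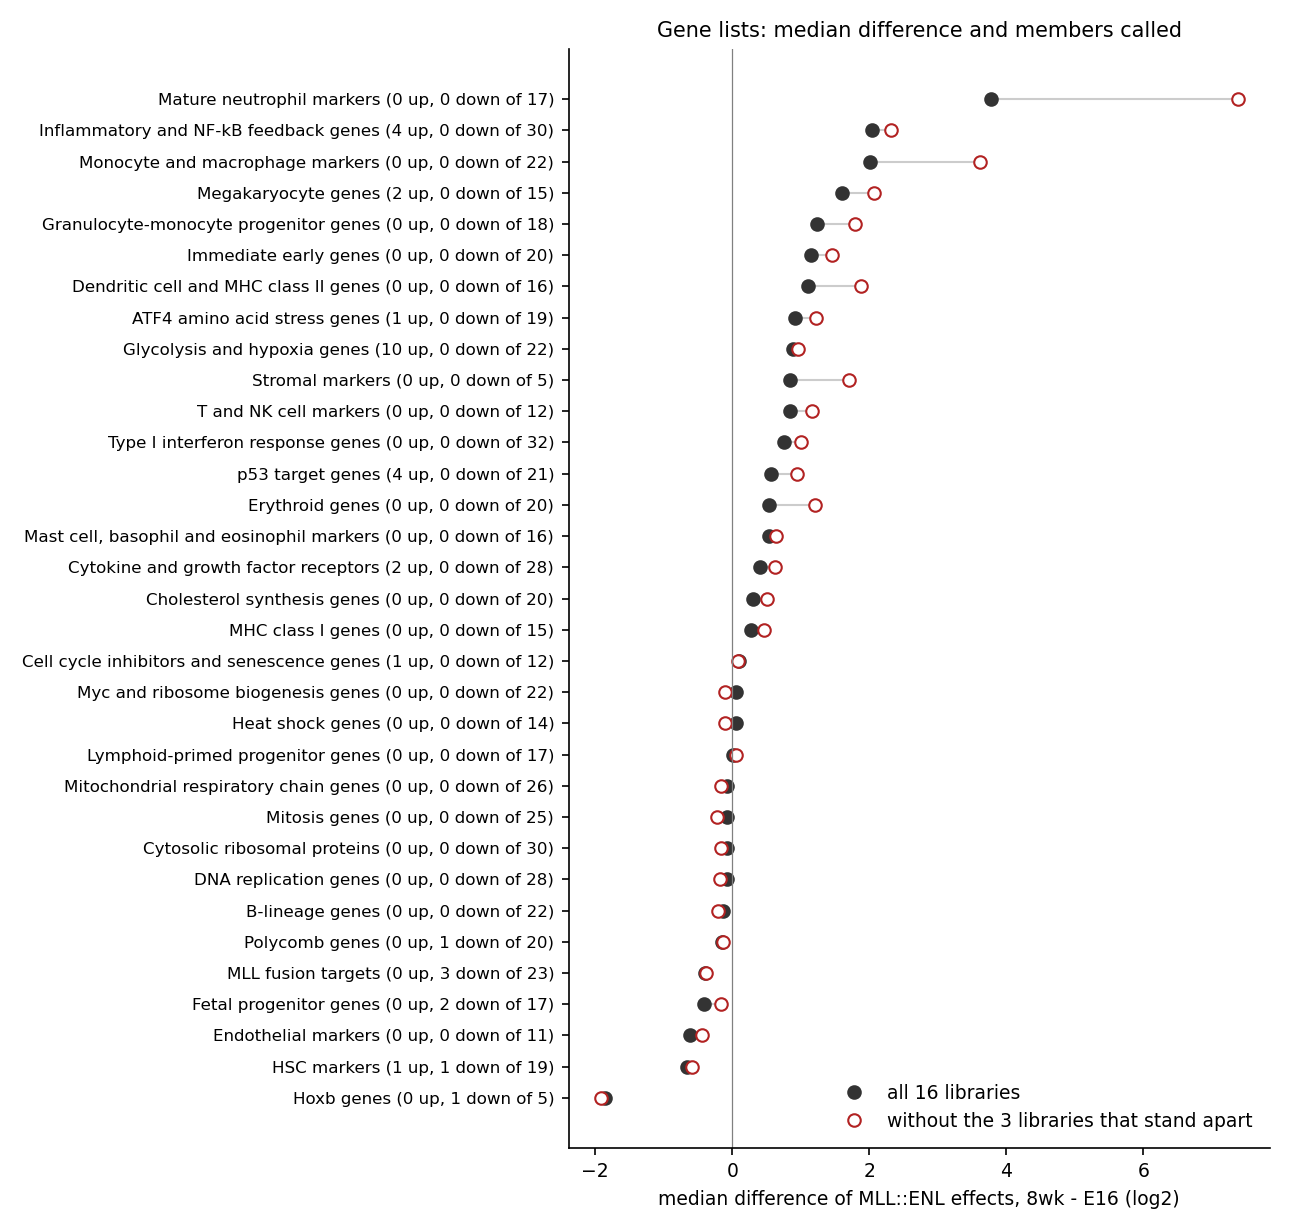
Median difference of the MLL::ENL effect, 8wk minus E16 (x axis, log2), for the gene lists (y axis, with members called higher and lower of those tested); filled circles use all 16 libraries and open circles leave out the 3 that stood apart. The neutrophil median moves from 3.78 to 7.38, while the glycolysis and hypoxia median moves from 0.89 to 0.96.

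Levels of sex-linked genes differed among libraries of the same group. Their sum ran from 36 to 214 CPM in the E16 controls, 36.3 to 198 in E16 ME, 39.5 to 237 in the 8wk controls and 42.4 to 269 in 8wk ME. With the Y-linked level as a covariate 29 genes were higher and 30 lower.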

How the data were processed

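Per the labels, an RNeasy Plus kit served for the RNA and a SMART-type kit of Clontech for the libraries. The deposited values are raw counts per Ensembl gene, which the authors made, per the submitters' processing notes, with STAR 2.7.9a, GRCm38 and featureCounts 2.0.3 (Subread). The annotation release and strand setting are not given in the sources used here, so genes with an overlapping antisense partner are uncertain. Even numbers made up 63.6% (median over libraries) of the counts between 1 and 20, which happens when mates are counted separately, and counting intervals would then be too narrow. The table held 55774 lines with 55487 gene identifiers, of which 55141 were in GENCODE M21, used for coordinates.

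Groups came from sample titles. All 24 libraries were fitted together, with 1 mean per group, by edgeR 4.0.16 (R 4.3.3) with its robust quasi-likelihood test, TMM factors (0.91 to 1.11) and filterByExpr (minimum count 10). Each comparison was adjusted by Benjamini-Hochberg over 18931 genes and called under 0.05. Errors after ± are SE of the log2 value, intervals are 95%, and CPM use TMM-scaled totals. The script was tested on simulated data. Limma 3.58.1 and DESeq2 1.42.0 served in alternatives, 28 in all.

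The comparison and the 35 gene lists were chosen with earlier results of these data known, and lists are described by counts and medians without a test. The rule for named genes took Skida1, Kmt2a and Mllt1, the 14 largest called differences in each direction where 1 group mean reached 5 CPM (clone-type names passed over), and up to 2 called members of each list. Other genes were chosen after their values were seen.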

Additional observations from a re-analysis of the deposited data

Results flagged for a closer look

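Not counting mt-Cytb, the effect of MLL::ENL differed between E16 and 8wk for 63 of the genes given here, by the test of the difference. Their log2 differences (8wk minus E16) follow. The widest higher ones were Thbs1 (6.63), Jchain (5.35), Cxcl10 (4.98), Cox6a2 (4.22), Cdh2 (4.04), Tnf (3.98), Nfkbiz (3.93), Slc2a6 (3.82), Slc39a4 (3.69), Alox12 (3.67), Nox1 (3.60) and Noxa1 (3.58). Next came Zc3h12a (3.22), Gstt1 (3.18), Pmaip1 (2.82), Ccl4 (2.74), Slc16a3 (2.74), Cdkn1a (2.69), Nlrc4 (2.10) and Il1rl2 (2.02). Smaller ones were Nfkbid (1.85), Ncf1 (1.84), Il1r2 (1.58), Plek (1.44), Aldoa (1.29), Egln3 (1.23), Sesn2 (1.22), Tpm4 (1.2), Eno1 (1.19), Kit (1.11) and Il1r1 (1.11). The smallest were P4ha1 (1.08), Slc2a1 (1.06), Ak4 (1.04), Ndrg1 (1.04), Pfkp (1.03), Pgam1 (0.90), Tpi1 (0.90), Gapdh (0.89), Cd44 (0.87), Gpi1 (0.84), G6pdx (0.83) and Bax (0.73). On the lower side stood Pcdh7 (-3.06), Lhfp (-2.91), Sox18 (-2.58), Prex2 (-2.55), Btc (-2.50), Hoxb5 (-2.26), Crispld1 (-2.21), Skida1 (-2.09) and Lin28b (-2.01), and then Bdh2 (-1.96), Kctd12b (-1.91), Uchl1 (-1.79), Retreg1 (-1.73), Pde1b (-1.70), Ranbp9 (-1.65), Smim10l2a (-1.64), Hmga2 (-1.16), Hoxa10 (-1.15), Hoxa5 (-1.11) and Ezh2 (-0.46).

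In 24 of 316 groups of 4 libraries (79 genes in 4 groups) the highest or lowest library lay far from the other 3 on the log2(CPM + 0.1) scale. Chance alone does so in about 1 of 20 groups. In 8wk ME replicate 4 the level was low for Kmt2a (17.6 CPM), Thbs1 (6.58), Cxcl10 (0.878), Nkx2-3 (13.2) and Igf2bp3 (0.92) and high for Jchain (154). E16 ME replicate 4 was low for Tnf (1.25 CPM), Lin28b (33.3) and Ldha (2140) and high for Retreg1 (97.7) and Ranbp9 (62.8). E16 ME replicate 3 was high for Gapdh (1960 CPM), Slc2a1 (158), Tpi1 (496) and Gpi1 (606). 8wk control replicate 1 was low for Ezh2 (94.9 CPM) and high for Pf4 (282). 8wk control replicate 3 was low for Mllt1 (9.9 CPM), Slc39a4 (4.77) and Pde1b (4.85). The others were Cdh2 (0.0429 CPM) and Pfkp (231) in 8wk control replicate 4, Pmaip1 (49.4) in E16 control replicate 2, each high, and Prex2 (1.47) in 8wk ME replicate 1, low. Of these 24, 13 lay in the 3 libraries that stood apart.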

How the results depend on the processing

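With all libraries, 87 genes had a higher effect at 8wk and 74 a lower one. All 161 kept their sign in every setting in which they were tested, and no gene given here changed sign in a setting while called. The settings share libraries with the fit that picked these genes, which favours a kept sign. The number of calls moved more. Higher and lower calls were 349 and 243 with the DESeq2 Wald test, 133 and 117 with at least 1 CPM in 4 libraries, 35 and 20 with only the 16 libraries in the fit, 29 and 30 with the Y-linked covariate, and 57 and 50 with no filter (more genes tested). Without the 3 libraries that stood apart, a setting chosen after seeing the data, they were 749 and 613. Leaving out 1 library at a time gave 22 to 504 higher and 26 to 392 lower calls. The lowest counts came without 8wk control replicate 2, and the highest, 504 and 392, without 8wk control replicate 1. Without 8wk ME replicate 4 they were 378 and 361. Higher calls were also more than 1.5 times away without E16 ME replicate 1 or 4, E16 control replicate 1 or 2, 8wk ME replicate 1 or 2, and 8wk control replicate 3 or 4. In the fit without 1 library, calls numbered 3024 to 4421 for the effect at E16 (4125 with all) and 3433 to 6571 at 8wk (5392 with all), the lowest without 8wk control replicate 3. The share of calls that were higher was 54.0%, and ran from 41.9% without E16 ME replicate 1 to 63.8% with upper quartile scaling. It was 62.1% with DESeq2 size factors and 50.3% with library sizes. Same-numbered libraries did not pair: their correlations ran from -0.043 to 0.001 at E16 and from -0.088 to 0.118 at 8wk. With the replicate block 110 genes were higher and 63 lower, and 98 of the 161 were among them. Megakaryocyte genes called higher then numbered 5, and Hmga2 (adjusted p = 0.0565) and Jchain (0.116) were no longer called. Genes under about 1 CPM (Hoxb5, Noxa1, Skida1 in controls, Lin28b at 8wk) rest on few counts, and a difference whose SE is near the median of 0.35 must be large to pass.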

Other observations

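Markers of cell types that a sort could carry over, beside those above, had no member called. The median difference was 0.84 over 12 tested T and NK cell markers, 0.53 over 16 mast cell, basophil and eosinophil markers, -0.61 over 11 endothelial markers, 0.85 over 5 stromal markers and 0.04 over 2 hepatocyte markers. The 5 sex-linked genes had a median of 2.03. Without the 3 libraries that stood apart, Cd3d, Cd28 and Ccr3 were called higher and Gzmb lower.

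Other lists had more members called in that smaller set of libraries, where 3.89% of all genes were called higher. Of the granulocyte-monocyte progenitor genes, Csf1r, Irf8, Csf3r, Mpo, Csf2rb and Csf2ra were then higher at 8wk. These calls are partly built in, since this list stood apart in the same libraries. It summed to 2480 CPM in E16 ME replicate 4 (4640 to 7410 in the rest of its group) and to 3680 in 8wk ME replicate 4 (7570 to 8250). In 8wk control replicate 1 it summed to 6160 CPM (2660 to 3100). Of the 20 cholesterol synthesis genes 9 were called higher in the smaller set, among them Sqle and Fdft1, enzymes of the pathway. Of the 19 ATF4 genes 13 were (Sesn2 with all libraries), among them Asns, Trib3 and Slc7a11, the cystine transporter. Of the 32 type I interferon response genes 10 were, among them Irf7 and Mx1. Alas2, Hba-a1, Hba-a2, Hbb-bs and Bcl11a of the erythroid list were called as well, and the counts of the near-identical globin genes are uncertain.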
